A study of Mus musculus with 14 samples.

Results

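NMDA receptors are glutamate-gated ion channels that admit calcium. Each receptor combines the obligatory GluN1 subunit, encoded by Grin1, with GluN2 subunits (Grin2a to Grin2d) that bind glutamate and set how long the channel stays open, or with GluN3 subunits (Grin3a and Grin3b) that bind glycine. In the developing cerebellum, granule cells are known to start with GluN2B and to exchange it for GluN2A and GluN2C as they mature and receive mossy fibre input, and GluN2C remains the characteristic subunit of adult granule cells. All 7 mouse Grin genes were taken by their gene symbols from the 41381 genes of the deposited table, and each was present once.

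The libraries were made from total RNA of granule neuron progenitors (GNPs), which divide in the external granule layer, isolated on a percoll gradient from mouse cerebella at postnatal day 7. The genotype labels come in 2 wordings. WT libraries (n = 5) are labelled Chd7 wild type (WT 1 to 3) or Atoh1-Cre negative (WT 4 and 5). Het libraries (n = 5) are labelled Chd7 het mutant (Het 1 and 2) or Atoh1-Cre::Chd7 f/+ (Het 3 to 5), and Hom libraries (n = 4) Chd7 hom mutant (Hom 1 and 2) or Atoh1-Cre::Chd7 f/f (Hom 3 and 4). The product of Chd7 is a chromatin remodeller that uses ATP. The floxed Chd7 alleles are removed by a Cre that is active in the granule cell lineage, and the WT mice carried floxed Chd7 without Cre. The labels give the background as C56Bl6/J for some libraries and C57BL/6 for others. The pups were not separated by sex, some Chd7 protein remained in the posterior lobe, for which the study names lower recombination by Atoh1-Cre as the probable reason, and the labels do not say whether each library came from its own animal, so p-values measure the spread between these samples. The libraries were sequenced in 2 batches (WT 1 to 3, Het 1 to 3 and Hom 1 and 2 in the first, the rest in the second), so that the wording of the labels follows the batch in every library but Het 3.

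Levels are in TPM, the abundance of a transcript per unit of length relative to all others, which corrects for transcript length and allows genes to be compared within a library. TPM keeps no record of depth, so the counting error of each value is unknown. Changes are differences in log2(TPM + 1) between genotypes with the batch as a term, fitted with limma over 17325 genes, and a gene is called when its Benjamini-Hochberg adjusted p was under 0.05. On this scale a gene at low TPM shows less than its full change. The targeted gene did not separate the genotypes: Chd7 stood at 176 ± 62.3 TPM in WT (SD, n = 5), 157 ± 17.2 in Het (n = 5) and 158 ± 26.3 in Hom (n = 4), a Hom change of -0.11 (SE 0.20, adjusted p = 0.862). The direction differed by batch. In batch 1 Hom 1 and 2, at 172 and 185 TPM, were above WT 1 to 3, at 121, 152 and 132 TPM, and in batch 2 Hom 3 and 4, at 150 and 126 TPM, were below WT 4 and 5, at 203 and 272 TPM. These TPM values count all exons of Chd7 together, and the genotypes below are those of the labels. Markers of the granule cell lineage (Atoh1, Barhl1, Pax6, Zic1, Zic2 and Neurod1) summed to 2563 to 3959 TPM over the 14 libraries.

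In the libraries labelled WT, the 7 genes fell into a steep order. Grin1 led at 21.6 ± 5.19 TPM, followed by Grin2b at 17.7 ± 2.43, Grin3a at 7.39 ± 1.12, Grin2d at 2.59 ± 0.709, Grin3b at 1.31 ± 0.486, Grin2a at 0.608 ± 0.0963 and Grin2c at 0.572 ± 0.172 (SD, n = 5 each). The ranges of Grin1 and Grin2b overlapped, as did those of Grin3b and Grin2a and those of Grin2a and Grin2c, whereas every other neighbouring pair in this order was separated. The immature-type subunit gene Grin2b was thus the main Grin2 transcript, and the mature-type genes Grin2a and Grin2c were the lowest of the 7. In Hom the order differed at the low end: Grin2c, at 3.62 ± 1.12 TPM (n = 4), rose from the last place to the one above Grin2d, and the ranges of these 2 genes overlapped.

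**Figure D1:**
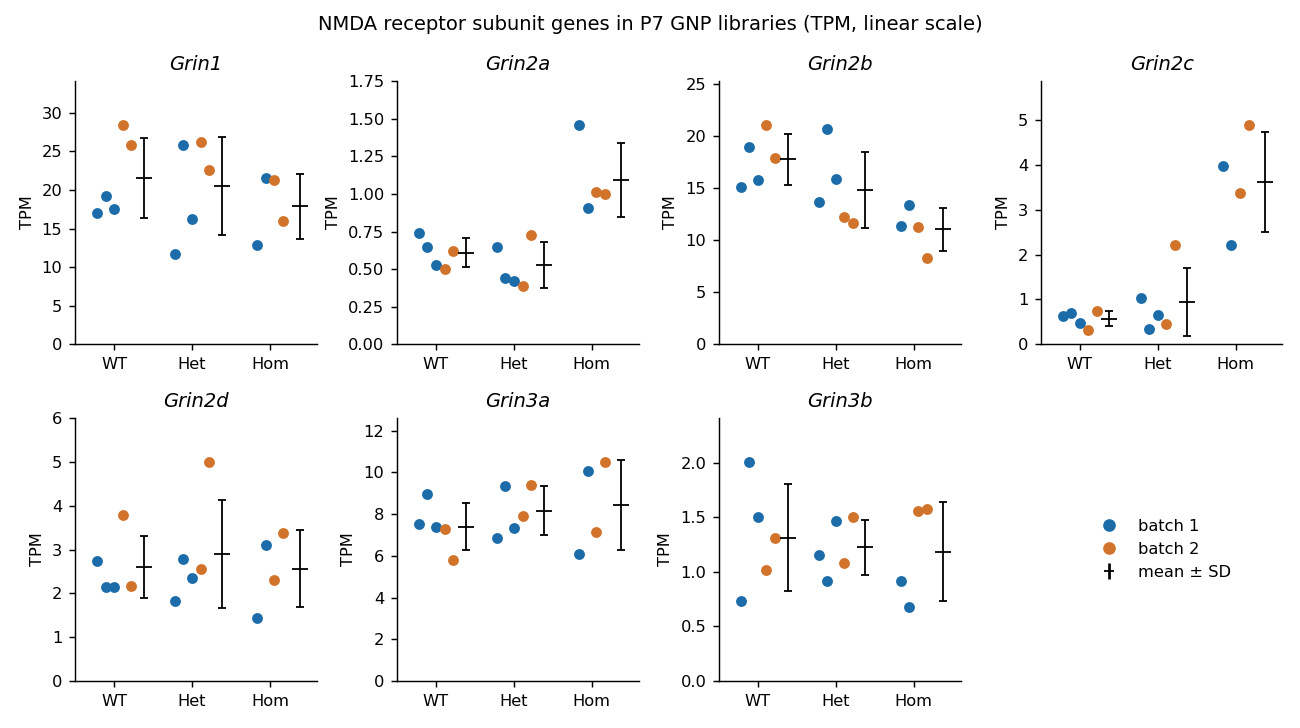
TPM of the 7 Grin genes in each library (1 point per library, linear axes from 0, blue for batch 1 and orange for batch 2), with the mean ± SD of each genotype as a black bar. For Grin2c and Grin2a every Hom point lies above every WT point, and for Grin2b every Hom point lies below every WT point.

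Hom and WT values did not overlap for Grin2c, Grin2a and Grin2b, and 1 of these 3 genes, Grin2c, was called. The share of all genes without such overlap was not computed, so the lack of overlap only describes these genes. In Hom against WT, 1 of the 6 Grin genes that passed the filter was called higher and 0 were called lower by limma, with Grin2b the 1 lower gene at an unadjusted p under 0.05. Over all genes tested, 1.27% were called higher and 1.41% lower in this contrast, and 8.51% were higher and 6.42% lower at an unadjusted p under 0.05. In Het against WT, limma called 0 of the 6, and 0 had an unadjusted p under 0.05. Of all genes, 0.00577% were called higher and 0% lower in this contrast, and 3.20% were higher and 2.88% lower at an unadjusted p under 0.05. Exact permutation of the labels within batch, with an unadjusted threshold of 0.05, also gave 0 of the 7 Grin genes for Het against WT. In Hom against Het, 1 of the 6 was called higher and 0 lower by limma (1 lower, Grin2b, at an unadjusted p under 0.05), with 0.150% of all genes called higher and 0.277% lower. At an unadjusted p under 0.05, 3.05% of all genes were higher and 3.13% lower in Hom than in Het.

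Grin2c (ENSMUSG00000020734, chr11:115249169-115267243, minus strand, GRCm38) encodes GluN2C, the subunit of low-conductance receptors in mature granule cells. It was measured at 0.62, 0.70, 0.48, 0.32 and 0.74 TPM in WT 1 to 5, at 1.03, 0.35, 0.66, 0.45 and 2.21 TPM in Het 1 to 5, and at 3.98, 2.21, 3.38 and 4.89 TPM in Hom 1 to 4. All Hom libraries were above all WT libraries, while Het 5 reached the lowest Hom value and the other Het libraries lay near WT. The ratio of the mean TPM in Hom to that in WT was 6.32. On the log2(TPM + 1) scale the Hom change was 1.51 (SE 0.25, 95% interval 0.97 to 2.04, adjusted p = 0.00465), and it was 1.32 in batch 1 and 1.74 in batch 2.

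Grin2c reached 1 TPM in 6 libraries, the 4 Hom libraries with Het 1 and Het 5, so it entered the test through the group in which it was high. With the filter widened to all genes above 0 in at least 4 libraries (24470 genes), its adjusted p was 0.00599. Fitted alone, neither batch gave a call, with an adjusted p of 0.0928 in batch 1 and 0.211 in batch 2. The Hom change remained past the threshold without any 1 library, at 1.39 to 1.66 with an adjusted p of at most 0.0255. Hom also exceeded Het, by 1.27 (SE 0.25, adjusted p = 0.0454), but this call was lost under most alternatives. Under the wider filter the adjusted p was 0.0598, and 12 of the 14 fits that left out 1 library gave no call (a change of 1.12 to 1.48 over the 14, with the call kept only without WT 4 or without Het 5). The Het change from WT was 0.24 (SE 0.23, 95% interval -0.27 to 0.74, adjusted p = 0.903). This interval leaves a Het change of either sign possible.

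Grin2b (ENSMUSG00000030209, chr6:135713233-136173511, minus strand) encodes GluN2B, the slowly closing subunit of immature neurons. WT 1 to 5 held 15.05, 18.94, 15.72, 21.04 and 17.89 TPM, Het 1 to 5 held 13.60, 20.64, 15.84, 12.25 and 11.59 TPM, and Hom 1 to 4 held 11.33, 13.33, 11.20 and 8.31 TPM. Each Hom library was below each WT library, with Het spread over both ranges. The Hom mean was 0.623 of the WT mean. The change was -0.63 (SE 0.16, 95% interval -0.97 to -0.28, unadjusted p = 0.00180), which narrowly missed the threshold after adjustment over all genes (adjusted p = 0.0591). It was called in 6 of the 27 alternative fits that gave an adjusted p. Among these were the fits without WT 1 (adjusted p = 0.0493) and without Het 2 (adjusted p = 0.0309), median-ratio scaling and quantile normalization. The other 12 of the 14 fits that left out 1 library gave no call, with an adjusted p of up to 0.175 without Hom 4. Neither batch alone gave a call (adjusted p = 0.386 in batch 1 and 0.193 in batch 2).

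The size of the Grin2b difference was not alike in the batches. Hom against WT was -0.40 in batch 1 and -0.94 in batch 2, and Het against WT was -0.003 in batch 1 and -0.66 in batch 2. In batch 2 both Het libraries were below both WT libraries, and in batch 1 the 3 Het libraries straddled the WT values. The batch difference of the Het effect had an unadjusted p of 0.0279 and an adjusted p of 0.510, and that of the Hom effect an unadjusted p of 0.0724. Pooled over the batches, Het differed from WT by -0.27 (SE 0.15, 95% interval -0.59 to 0.06, adjusted p = 0.842).

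Grin2a (ENSMUSG00000059003, chr16:9567898-9995560, minus strand) encodes GluN2A, the fast subunit that joins synaptic receptors during maturation. Its values were 0.74, 0.65, 0.53, 0.50 and 0.62 TPM in WT 1 to 5, 0.65, 0.44, 0.42, 0.39 and 0.73 TPM in Het 1 to 5, and 1.46, 0.91, 1.01 and 1.0 TPM in Hom 1 to 4. The Hom libraries were above all WT and all Het libraries, although at a level near 1 TPM. The ratio of the Hom mean to the WT mean was 1.80. Grin2a reached 1 TPM in only 3 libraries and was not in the main test. Exact permutation of the labels within batch, two-sided, gave p = 0.0167 for Hom against WT and for Hom against Het, the smallest p that the 60 arrangements allow. Under the wider filter the changes were 0.38 (SE 0.10, adjusted p = 0.108) and 0.46 (adjusted p = 0.132), and neither was called.

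**Figure D2:**
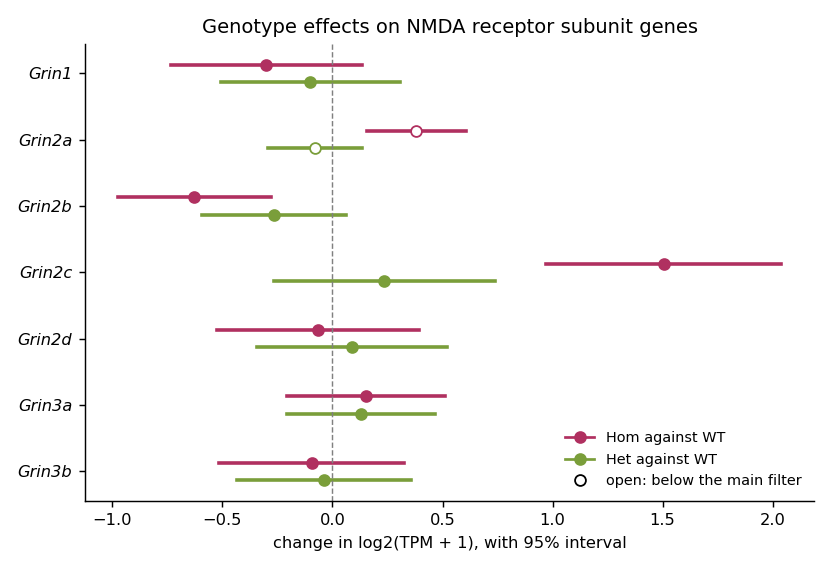
Change in log2(TPM + 1) with its 95% interval for each Grin gene in Hom against WT (crimson) and Het against WT (green), and open symbols for Grin2a, which was fitted under the wider filter. The Hom interval of Grin2c runs from 0.97 to 2.04 and that of Grin2b from -0.97 to -0.28, and all Het intervals include 0.

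The same exact permutation test gave p = 0.0167 for Grin2b and Grin2c in Hom against WT and p of at least 0.183 for the other 4 genes. The Kruskal-Wallis test across the genotypes was run on values with the batch term removed, over all arrangements of the labels. It gave an unadjusted p of 0.00424 for Grin2a, 0.00578 for Grin2b and 0.00621 for Grin2c. For Grin1, Grin2d, Grin3a and Grin3b it gave 0.437, 0.821, 0.781 and 0.945. The batch term was estimated with the genotypes in the model and labels were exchanged across batches, so these p-values are approximate. No share over all genes was computed for this test.

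Since Grin2b was lower and Grin2c higher in the Hom libraries, the Grin2 transcripts were also expressed as shares of their summed TPM in each library. These shares restate the levels above and are given without a test. The sum itself was 21.5 ± 2.76 TPM in WT, 19.2 ± 3.25 in Het and 18.3 ± 0.863 in Hom, and these ranges overlapped in part, with Hom between 17.6 and 19.6 TPM and WT between 18.9 and 25.6. Grin2b made up 82.4 ± 2.26% of it in WT, 76.9 ± 10.2% in Het and 60.1 ± 8.97% in Hom. Grin2c made up 2.72 ± 0.890%, 5.02 ± 3.89% and 20 ± 6.86% in the same order. Grin2a held 2.88 ± 0.679%, 2.81 ± 0.911% and 6.00 ± 1.43%, and Grin2d, at 12 ± 2.37%, 15.3 ± 6.20% and 14 ± 4.84%, had overlapping ranges in the 3 genotypes. Grin2b was the most abundant Grin2 transcript in each of the 14 libraries.

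**Figure D3:**
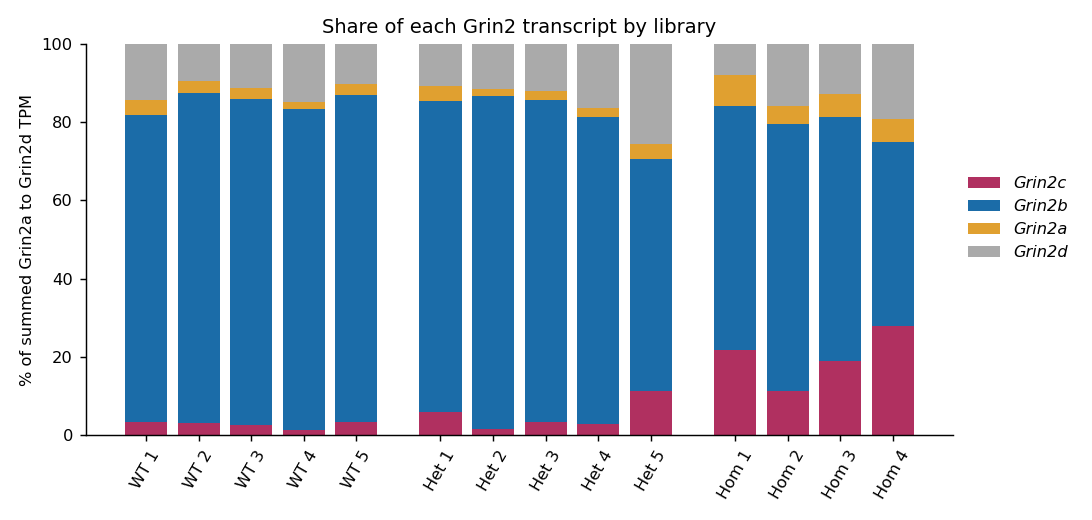
Share of Grin2a, Grin2b, Grin2c and Grin2d in their summed TPM, as stacked percentages with 1 bar per library. The Grin2c segment takes 11.3% to 27.8% in the Hom libraries, at most 3.45% in the WT libraries and 11.3% in Het 5.

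The ratio of Grin2b to Grin2c TPM ran from 24.2 to 65.8 in WT, from 5.24 to 59.0 in Het and from 1.70 to 6.03 in Hom. Het 5 was the 1 Het library inside the Hom range. For Grin2b to Grin2a the ratio ran from 20.3 to 42.1 in WT, from 15.9 to 46.9 in Het and from 7.76 to 14.6 in Hom, and here Hom was below all other libraries. Het 5 also held the highest Grin2d value of all libraries, at 5.01 TPM.

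**Figure D4:**
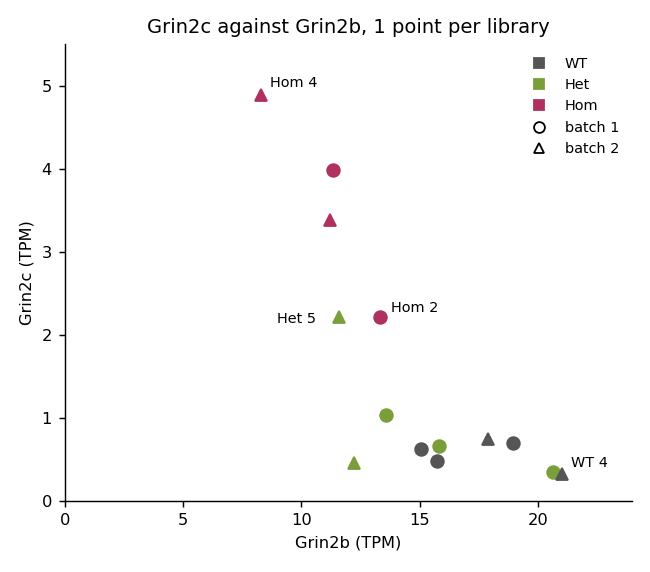
Grin2c TPM against Grin2b TPM on linear axes, 1 point per library, coloured by genotype and with circles for batch 1 and triangles for batch 2. The Hom libraries occupy the upper left (Grin2b at most 13.3 TPM, Grin2c at least 2.21 TPM) together with Het 5, and the WT libraries the lower right.

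The obligatory subunit gene Grin1 (ENSMUSG00000026959, chr2:25291181-25319187, minus strand) had 17.01, 19.23, 17.54, 28.45 and 25.78 TPM in WT 1 to 5, 11.67, 25.81, 16.22, 26.26 and 22.54 TPM in Het 1 to 5, and 12.82, 21.50, 21.25 and 15.95 TPM in Hom 1 to 4. The WT and Het libraries of batch 2 averaged 27.1 and 24.4 TPM against 17.9 and 17.9 TPM in batch 1, while Hom averaged 18.6 TPM in batch 2 and 17.2 in batch 1. Over both batches the genotypes overlapped, but in batch 2 both Hom libraries were below both WT libraries. Hom differed from WT by -0.30 (SE 0.20, 95% interval -0.73 to 0.13, adjusted p = 0.533), by -0.10 in batch 1 and by -0.53 in batch 2 (adjusted p = 0.255 in batch 2 alone). Without Hom 2 the change was -0.49 and without Hom 4 it was -0.18, and neither was called. Exons of Grin1 and of the antisense gene Grin1os overlap over 1307 bp, and Grin1os averaged 1.33 TPM. The summed Grin2 level divided by that of Grin1 averaged 1.02 ± 0.146 in WT, 1.01 ± 0.331 in Het and 1.07 ± 0.259 in Hom.

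Grin2d (ENSMUSG00000002771, chr7:45831883-45878378, minus strand), whose GluN2D subunit gives slowly closing receptors in early development, held 2.73, 2.15, 2.14, 3.78 and 2.17 TPM in WT, 1.83, 2.78, 2.34, 2.55 and 5.01 TPM in Het, and 1.43, 3.10, 2.31 and 3.39 TPM in Hom. The 3 groups overlapped, and the Hom change was -0.06 (SE 0.21, 95% interval -0.52 to 0.39, adjusted p = 0.934). The sign of this change was not stable when single libraries were left out.

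The GluN3 genes encode subunits that lower calcium entry. Grin3a (ENSMUSG00000039579, chr4:49661611-49845744, minus strand) held 7.52, 8.95, 7.40, 7.30 and 5.78 TPM in WT, 6.87, 9.36, 7.32, 7.93 and 9.39 TPM in Het, and 6.11, 10.05, 7.14 and 10.52 TPM in Hom. These values overlapped throughout, with a Hom change of 0.15 (SE 0.17, 95% interval -0.20 to 0.51, adjusted p = 0.733). Its sign turned with batch 1 alone (-0.011) and with weights on the libraries (-0.0037).

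Grin3b (ENSMUSG00000035745, chr10:79970715-79977190, plus strand) held 0.73, 2.01, 1.5, 1.02 and 1.31 TPM in WT, 1.15, 0.92, 1.47, 1.08 and 1.5 TPM in Het, and 0.92, 0.68, 1.56 and 1.58 TPM in Hom. The Hom change was -0.10 (SE 0.19, 95% interval -0.52 to 0.33, adjusted p = 0.878). Its sign turned in batch 2 alone (0.25). Exons of Grin3b overlap those of Tmem259 on the opposite strand over 1059 bp. Tmem259 averaged 132 TPM, and RSEM at its default parameters takes no account of strand, so the low level of Grin3b is uncertain.

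Markers of other cell types also differed between genotypes, and in bulk RNA fewer cells of a type and less RNA per cell cannot be told apart. All 6 tested Purkinje cell markers had Hom changes below 0, 1 of them called (Pcp4, adjusted p = 0.00914), beside 1.41% of all genes called lower. In Het against WT all 6 markers also lay below 0 (median -1.05, beside -1.04 in Hom), with 0 called. Their sum over 7 genes was 42.5 to 194 TPM in WT, 39.3 to 90.8 in Het and 32.3 to 49.4 in Hom, with Pcp2 at 0 in at least 1 library. WT 4 and WT 5, of batch 2, had sums of 54.9 and 42.5 TPM and Grin2b at 21.04 and 17.89 TPM. WT 1 to 3, of batch 1, had sums of 146 to 194 TPM and Grin2b at 15.05 to 18.94 TPM. In Het 1 to 5 the sums were 56.9, 39.3, 90.8, 49.0 and 40.0 TPM. Grin2b in these libraries was at 13.60, 20.64, 15.84, 12.25 and 11.59 TPM. How this sum relates to the Grin2b levels was not tested. All 9 Bergmann glia and astrocyte markers lay below 0 in Hom, with 0 called by limma and 5 at an unadjusted p under 0.05 (6.42% of all genes were lower at this threshold), and summed to 421 to 1890 TPM in WT, 609 to 1180 in Het and 356 to 717 in Hom, with none at 0. All 9 of these markers lay below 0 in Het against WT too (median -0.32, beside -0.81 in Hom), with 0 called.

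All 5 endothelial markers lay above 0 in Hom, with 0 called by limma and 4 at an unadjusted p under 0.05 (8.51% of all genes were higher at this threshold), and summed to 22.8 to 190 TPM in WT, 19 to 403 in Het and 100 to 300 in Hom, with none at 0. In Het against WT all 5 also lay above 0 (median 1.05, beside 1.48 in Hom), with 0 called. The highest sums in WT and Het were those of WT 4, at 190 TPM, and Het 2, at 403 TPM, and these libraries held the lowest Grin2c values of their groups, 0.32 and 0.35 TPM. The next sums in the same groups were those of WT 5, at 102 TPM, and Het 5, at 218 TPM, and these held the highest Grin2c values of their groups, 0.74 and 2.21 TPM. The inhibitory interneuron sum was 79.9 to 123 TPM in WT, 71.4 to 122 in Het and 81.6 to 171 in Hom, with 0 of 7 markers called by limma, 0 at an unadjusted p under 0.05 and Npy at 0 in at least 1 library. All 4 haemoglobin genes lay below 0 in Hom and in Het, with 0 called by limma and 4 at an unadjusted p under 0.05 in each (6.42% of all genes were lower in Hom and 2.88% in Het), and summed to 295 to 710 TPM in WT, 139 to 362 in Het and 185 to 348 in Hom. The summed levels of the oligodendrocyte lineage, microglia and unipolar brush cell lists overlapped between the genotypes. What part the other cell types had in the Grin levels was not tested.

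The proteins that anchor NMDA receptors and carry their signal were described as a list of 35 genes (PSD-95-type scaffolds, calcium-dependent kinases, calcineurin, Src-family kinases and others), of which 33 were tested. In Hom against WT, 3 were called lower and 1 higher (1.41% and 1.27% of all genes). The median change was -0.12 beside 0.024 over all genes. The 3 lower genes were Nefl, a neurofilament subunit that binds GluN1, Dlg2, which encodes the scaffold PSD-93, and Ppp3ca, the catalytic subunit of the calcium-activated phosphatase calcineurin. Nefl stood at 28.4 ± 4.44 TPM in WT and 13.9 ± 0.552 in Hom (change -0.98, SE 0.09, adjusted p = 6.98e-05). Dlg2 stood at 43.2 ± 3.65 TPM in WT and 27.3 ± 2.51 in Hom (change -0.63, SE 0.08, adjusted p = 0.000626).

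Ppp3ca changed by -0.45 (adjusted p = 0.0262), from 164 ± 18.1 to 120 ± 15.1 TPM. The 1 gene that rose was Nos1, the neuronal nitric oxide synthase that is activated by NMDA receptor calcium, from 5.75 ± 0.511 TPM in WT (n = 5) to 14.1 ± 2.43 in Hom (n = 4) (change 1.13, SE 0.12, adjusted p = 0.000151). In Het, Nos1 stood between the others at 7.91 ± 1.06 TPM (change from WT 0.40, adjusted p = 0.518). Camk2a and Kif17, named here for being below the filter, had group means of at most 0.692 TPM. In Hom against Het, Dlg2 and Nefl were also called lower and Nos1 higher.

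Of the 13 genes for synthesis and transport of the co-agonists glycine and D-serine, all tested, 1 was called higher and 0 lower (1.27% and 1.41% of all genes). Their median change was 0.24. The called gene was Shmt1, the cytosolic enzyme that interconverts serine and glycine, at 35.4 ± 1.5 TPM in WT and 42.8 ± 2.03 in Hom (change 0.27, adjusted p = 0.0305). Psat1, an enzyme of serine synthesis and the most abundant member, was at 188 ± 10.9 TPM in WT and 225 ± 23.8 in Hom (adjusted p = 0.0572).

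Lists for 3 stages of the granule cell were set beside the subunit genes, and all comparisons share the same libraries. Of 10 genes of early postmitotic granule cells, 3 were called lower in Hom against WT and 0 higher (1.41% and 1.27% of all genes). The median change was -0.42. Neurod1, a proneural transcription factor and the most abundant member, fell by 0.55 (adjusted p = 0.0116). The others were Stmn2, a microtubule regulator of growing axons (change -0.55, adjusted p = 0.000111), and Tubb3, the neuronal tubulin (change -0.38, adjusted p = 0.0111). All 10 genes of the list had changes below 0.

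Of 12 genes of late granule cell maturation, the stage at which Grin2a and Grin2c are known to be expressed, 10 were tested. Of these, 2 were called lower and 0 higher (1.41% and 1.27% of all genes), with a median of -0.07. Slc17a7, the vesicular glutamate transporter VGLUT1, was at 23.2 ± 1.97 TPM in WT and 15.1 ± 6.20 in Hom (change -0.71, adjusted p = 0.0439). Cbln1, a secreted organizer of parallel fibre synapses, was at 179 ± 23.8 TPM in WT and 131 ± 13 in Hom (change -0.47, adjusted p = 0.00107). Rbfox3, the splicing factor known as NeuN and the most abundant member, was at 182 ± 41.5 TPM in WT and 134 ± 30.2 in Hom (adjusted p = 0.0823). Gabra6, which encodes the GABA-A receptor subunit of mature granule cells, was below the filter, like Kcnk3, and both are named for that reason. Gabra6 ranged from 0.04 to 1.03 TPM in WT, from 0 to 0.44 in Het and from 0.06 to 0.2 in Hom. Grin2c and Grin2a thus lay higher in Hom while Slc17a7 and Cbln1 of the late list were called lower.

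Of 12 genes of proliferating progenitors, 1 was called higher and 0 lower (1.27% and 1.41% of all genes), with a median of 0.22. This was Ccnd1, which encodes the G1 cyclin D1, at 94.3 ± 14.7 TPM in WT, 124 ± 9.87 in Het and 166 ± 18.5 in Hom (change in Hom 0.80, adjusted p = 0.000111). Top2a, the topoisomerase of dividing cells and the most abundant member, had a change of -0.02 (adjusted p = 0.97). In Het against WT, limma called 0 genes in each of these 5 lists. At an unadjusted p under 0.05, 2 of 33 scaffold and signalling genes (1 lower, 1 higher) and 2 of 13 co-agonist genes (2 higher) passed. So did 2 of 10 late genes (1 lower, 1 higher), 1 of 12 progenitor genes (higher) and 0 of 10 early postmitotic genes. Over all genes, 2.88% were lower and 3.20% higher at this threshold in the same contrast.

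**Figure D5:**
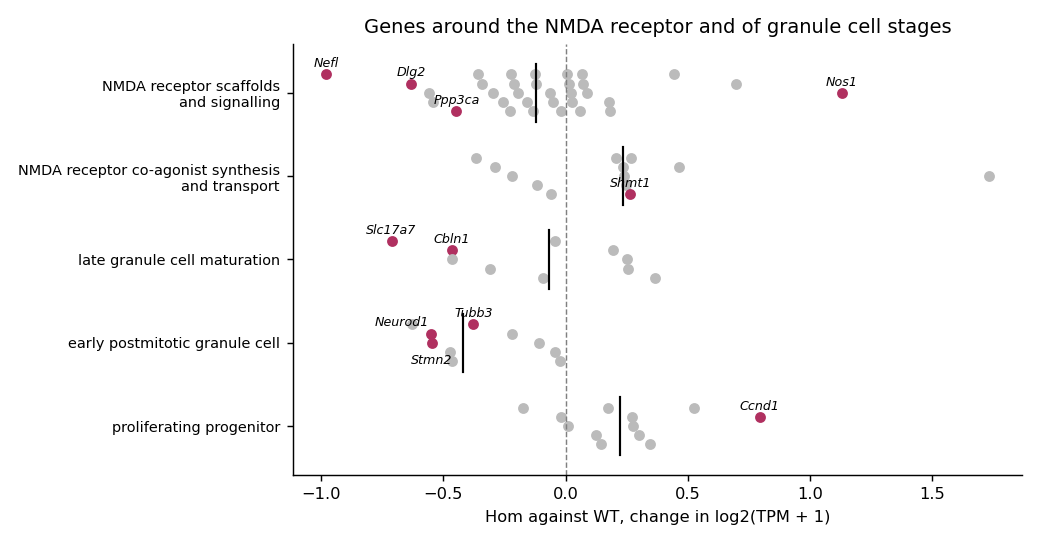
Change in log2(TPM + 1) in Hom against WT for each tested gene of 5 lists, with called genes in crimson and named, the median of each list as a vertical bar and a dashed line at 0. The medians run from -0.42 for early postmitotic granule cell genes to 0.24 for co-agonist genes, and the isolated grey point at 1.74 is Slc38a5, a glutamine transporter picked out after its value was seen (adjusted p = 0.27).

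For each Grin gene with a mean TPM of at least 1, the 3 most similar genes among those with a mean TPM of at least 5 were found by Pearson's r of log2(TPM + 1) over the 14 libraries after centring each batch. These r values are descriptions that share genotype, library and composition. Genotype was left in the values, so whether a nearest gene differs between genotypes largely follows from its choice and is no separate support. For Grin2c the 3 genes were Stra6 (r = 0.962), a retinol-binding protein receptor, Slit1 (r = 0.950), an axon guidance ligand, and Ntng2 (r = 0.946), a netrin-G synaptic adhesion molecule. Each was higher in Hom than in WT. Slit1 averaged 1.11 TPM in WT, 3.67 in Het and 26.1 in Hom, so it reached a mean TPM of 5 through Hom. Ntng2 averaged 7.62, 9.87 and 24.5 TPM in the same order, and Stra6 9.97, 12.1 and 20.3 TPM.

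Among the nearest genes of Grin2b were Nav3 (r = 0.931) and Src (r = 0.923), a kinase that phosphorylates NMDA receptors. Nav3 was lower in Hom than in WT, with a change of -0.68, and the change of Src was -0.22, without a call. Grin1 was closest to B4galnt1 (r = 0.965), an enzyme of ganglioside synthesis, Inha (r = 0.927) and Maf1 (r = 0.898). Grin3a was closest to Pdlim5 (r = 0.943), Epb41l2 (r = 0.941) and Serpine2 (r = 0.940), Grin2d to Slc44a5 (r = 0.834), Pcdhb17 (r = 0.825) and Dpp6 (r = 0.816), and Grin3b to Adprm (r = 0.901), Hagh (r = 0.838) and Mtg2 (r = 0.830). None of the nearest genes of Grin1, Grin2d, Grin3a and Grin3b was called in Hom against WT by limma.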

How the data were processed

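The authors used Bowtie 1.0.0 to map single-end reads against mouse transcripts of Ensembl (mm10) and estimated expression with RSEM 1.2.15 at default parameters, and they deposited 1 table of TPM values per gene. Column sums run from 999999.14 to 1000000.79, and no 2 columns are identical. The sources used here give 1 rounded depth for the whole set, so no counting interval was computed. A column named as a control was read as the WT library with its number. The batches are those of the study's methods. Positions are from GENCODE M21.

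Genes that reached 1 TPM in 4 or more libraries were analysed as log2(TPM + 1) with limma 3.58.1 (R 4.3.3, intensity trend), with genotype and batch as terms, all 14 libraries in the fit and Benjamini-Hochberg adjustment over 17325 genes. The study itself applied ComBat and a Kruskal-Wallis test. Here that test was run over all 252252 arrangements of the labels, across batches, after limma's batch removal. Permutation tests were two-sided and kept the batch, with 60 arrangements for contrasts with Hom and 120 for Het against WT. Alternatives changed the pseudocount, filter, scaling, batch term or libraries. The Grin genes and gene lists were chosen with earlier results of these data known. Named genes are all Grin genes, and from each list those called in Hom against WT and the most abundant member. Some items that this rule names are not reported here.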

Additional observations from a re-analysis of the deposited data

How the results depend on the processing

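The count of Grin genes called in Hom against WT was 1. It became 2, by the addition of Grin2b, under median-ratio scaling (change -0.66, adjusted p = 0.0390), quantile normalization (-0.67, adjusted p = 0.0391) and array weights (-0.61, adjusted p = 0.0428), 0 in batch 1 or batch 2 alone, and 3 by exact permutation with an unadjusted threshold, and ran from 1 to 2 when single libraries were left out. With genes of a mean TPM of at least 5, Grin2c was not tested and Grin2b was called (adjusted p = 0.0484). The Grin2c change in Hom against WT was called in 24 of the 26 alternative fits that gave an adjusted p. The count in Hom against Het, 1, became 0 with a pseudocount of 0.1 or 0.5, all genes above 0, a mean TPM of at least 5, quantile normalization, no batch term, batch 1 or 2 alone, the replicate block and only the 2 genotypes compared, 2 by exact permutation, and ran from 0 to 1 when single libraries were left out. With Het 3 moved to batch 2, where the wording of its record would place it, the counts were the same. In Het against WT the count stayed at 0 in the 28 alternatives. The counts by exact permutation cover all 7 Grin genes without adjustment, and no share over all genes was computed for that test.

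Same-numbered libraries did not deviate together (13 pairs, r from -0.235 to 0.264, 3 of them over 0.1), so the numbers were not taken as pairs. With the replicate number as a block, the Hom against WT count remained 1 (Grin2c 1.66, adjusted p = 0.0220, and Grin2b -0.71, adjusted p = 0.104), the Grin2d change turned to 0.019, and over all genes 144 were lower and 115 higher, against 245 and 220.

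The mean log2 ratio of Grin2c to Grin2b was 2.17 higher in Hom than in WT with a pseudocount of 1, 3.14 with 0.1 and 3.36 with none, and that of Grin2a to Grin2b was 1.02, 1.43 and 1.53 higher. Changes that turned sign were small and not called. In Hom against WT they were Grin3a in batch 1 (-0.011) and with array weights (-0.0037) and Grin3b in batch 2 (0.25), in Het against WT Grin2d (-0.015) and Grin3a (-0.023) in batch 1 and Grin3b in batch 2 (0.078), and in Hom against Het Grin3a with quantile normalization (-0.028) and array weights (-0.042) and Grin3b in batch 2 (0.17). With single libraries left out, the Hom against WT change ran from -0.22 to 0.072 for Grin2d and from -0.18 to 0.020 for Grin3b, the Het against WT change from -0.25 to 0.042 for Grin1, from -0.047 to 0.17 for Grin2d and from -0.13 to 0.083 for Grin3b, and the Hom against Het change from -0.086 to 0.17 for Grin3a and from -0.12 to 0.057 for Grin3b. The causes were not tested. Lower and higher calls over all genes in Hom against WT were 163 and 161 without the batch term, 123 and 136 with only these 2 genotypes, 79 and 83 in batch 1 and 4 and 0 in batch 2.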
